A study of Mus musculus with 9 samples.

Results

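Potassium channel expression was examined in 9 RNA sequencing libraries of the embryonic medial ganglionic eminence (MGE), a proliferative swelling of the ventral forebrain, with and without deletion of Ctnnb1. The genes are 47 named by symbol, out of 48526 gene identifiers in the table. They comprise 23 voltage-gated (Kv) alpha subunit genes, 7 Kv beta subunit and partner genes, 7 genes of the calcium-activated class, 6 inward rectifiers and 4 two-pore channels. Each of the 47 symbols matched an identifier.

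Potassium channels set the resting potential of a neuron, end its action potentials and limit how fast it can fire. Pore-forming alpha subunits line a potassium-selective pore and open on voltage, on calcium or sodium, or as leaks, while accessory subunits change how alpha subunits gate or reach the membrane. Interneurons born in the MGE later rely on Kv3 channels for short spikes and rapid firing and on Kv4 channels for transient A-type current.

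The 5 knockout libraries came from C57BL/6 embryos carrying Nkx2.1-cre, floxed Ctnnb1 on both alleles (Ctnnb1fl/fl) and Rosa26-YFP, a Cre-dependent yellow fluorescent reporter. The 4 control libraries carried Nkx2.1-cre and Rosa26-YFP as well, and control 4 also carried 1 floxed allele (Ctnnb1fl/wt). All were taken at embryonic day 14.5. Cre made under Nkx2.1 control acts in cells that have expressed this MGE transcription factor, so other cells of the dissected region keep the gene. The labels do not say whether cells were sorted, nor whether each library is a separate embryo, and p-values therefore cover only the variation among the libraries at hand, some of which may be technical. In bulk RNA, fewer cells of a type and less RNA per cell cannot be told apart.

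Ctnnb1 encodes beta-catenin, a junction protein and the transcriptional partner of TCF/LEF factors in Wnt signalling. Its level was 7103, 7660, 7133, 6572 and 5477 normalized counts in the knockout libraries, against 9841, 9960, 9967 and 9545 normalized counts in the control libraries. Every knockout library was below every control library, and the knockout mean was 69.1% of the control mean (log2 fold change -0.54, SE 0.0960, adjusted p = 0.000811, exact two-sided permutation p = 0.00794, the smallest that 126 splits allow). The summed level of 12 pan-neuronal markers was 30495 to 39226 normalized counts in knockout libraries and 17277 to 21752 in control libraries. That of 12 ventricular zone progenitor markers was 16838 to 25402 in knockout libraries and 32760 to 39124 in control libraries. Control 1 stood apart, with 2902 normalized counts of 10 cortical neuron markers and 2959 of 7 choroid plexus markers, against 178 to 247 and 168 to 366 in the other controls. In the knockout libraries the cortical sum was 281 to 788, above controls 2 to 4 in each, and the choroid plexus sum was 164 to 737; the part of these cells in the channel differences was not tested. Library totals were 5331170 to 5569444 reads in knockout and 5120585 to 5390156 in control.

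The channels differ most in how they gate and least in the selectivity filter, the loop in which the channel holds potassium ions. The coding DNA of this loop is shown for pore-forming genes whose levels the results turn on, so that pairs of one subfamily can be compared. Each line has 54 bases of the longest GENCODE M21 coding sequence, read 5′ to 3′ on the coding strand, and capitals mark the 15 bases that encode the 5 filter residues.
Kcnc2: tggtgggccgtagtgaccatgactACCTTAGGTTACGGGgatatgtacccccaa
Kcnd2: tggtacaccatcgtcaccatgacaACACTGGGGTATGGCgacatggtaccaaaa
Kcnd3: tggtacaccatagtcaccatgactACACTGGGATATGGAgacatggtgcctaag
Kcns2: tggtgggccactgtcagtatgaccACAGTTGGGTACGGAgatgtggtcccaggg
Kcnh3: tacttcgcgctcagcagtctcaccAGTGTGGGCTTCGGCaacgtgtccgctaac
Kcnh8: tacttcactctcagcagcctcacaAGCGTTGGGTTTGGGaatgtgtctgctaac
Kcnt1: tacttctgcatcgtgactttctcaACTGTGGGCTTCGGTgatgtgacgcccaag
Kcnma1: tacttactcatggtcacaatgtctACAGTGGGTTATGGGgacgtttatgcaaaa
Kcnk2, first pore: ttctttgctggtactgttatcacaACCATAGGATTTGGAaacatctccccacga
Kcnk2, second pore: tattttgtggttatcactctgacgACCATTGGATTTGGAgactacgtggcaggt
Kcnk10, first pore: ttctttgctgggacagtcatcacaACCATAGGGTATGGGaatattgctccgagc
Kcnk10, second pore: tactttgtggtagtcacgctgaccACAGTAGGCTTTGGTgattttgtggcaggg
The pattern searched for was threonine or serine, then valine, isoleucine or leucine, then glycine, tyrosine or phenylalanine, and glycine. It occurred in 38 of the 39 pore-forming members, Kcnk1 being the exception, and it occurred at 2 places in Kcnk2, Kcnk3 and Kcnk10. Of the 37 genes whose window was read, 27 had tyrosine and 10 had phenylalanine as the fourth residue of the first match. The paired genes shared 47 of 54 bases for Kcnd2 and Kcnd3 (87.0%) and 43 for Kcnh3 and Kcnh8 (79.6%). Kcnk2 and Kcnk10 shared 41 bases in the first pore and 40 in the second, while the first and second pore of Kcnk2 itself shared 32.

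Potassium channel genes were more often higher than lower in knockout MGE. Among the 13 members called higher, 10 were voltage-gated alpha subunits, the class with the most tested members (15 of 29). Of the 47 genes, 29 passed the filter of a mean of at least 10 normalized counts over the 9 libraries. Of these, 13 were higher in knockout libraries, 1 was lower and 15 did not pass an adjusted p of 0.05. Among all 13780 genes tested, 17.2% were higher and 17.3% were lower, so the members called higher (44.8% of those tested) stood above that background and the share called lower (3.45%) was below it. The median log2 fold change, knockout minus control, was 0.66 over the tested members and -0.01 over all tested genes, and 22 of the 29 values were positive. By class, 10 of 15 tested Kv alpha genes were higher and 0 lower (median 1.12), 1 of 5 Kv beta and partner genes was higher (0.02) and 1 of 5 calcium-activated genes was higher (0.30). Neither of the 2 tested inward rectifiers passed (0.00), and of the 2 tested two-pore genes 1 was higher and 1 lower (0.06). In 5 tested members the control mean was under 10, so they passed the filter through the knockout libraries. Among them were 4 of those called higher (Kcna2, Kcnb2, Kcnh3 and Kcnip2). The members were also chosen with earlier results of these data known. These counts therefore describe the members that passed and are not a test of the list. With a minimum mean of 50, 5 of 16 members were higher, where 2072 of 10376 genes were. Without the filter, 18 of 47 members were higher and 1 lower, where 7.94% and 7.28% of 30849 genes were. Only 13780 of those 30849 genes passed the filter, so the shares are not matched for level. Adjusted p-values of the fit without the filter cannot be set beside those of the filtered fit. For Kcnc1 it gave SE 0.147 and adjusted p = 3.41e-17, against 0.224 and 0.00107 with the filter.

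**Figure D1:**
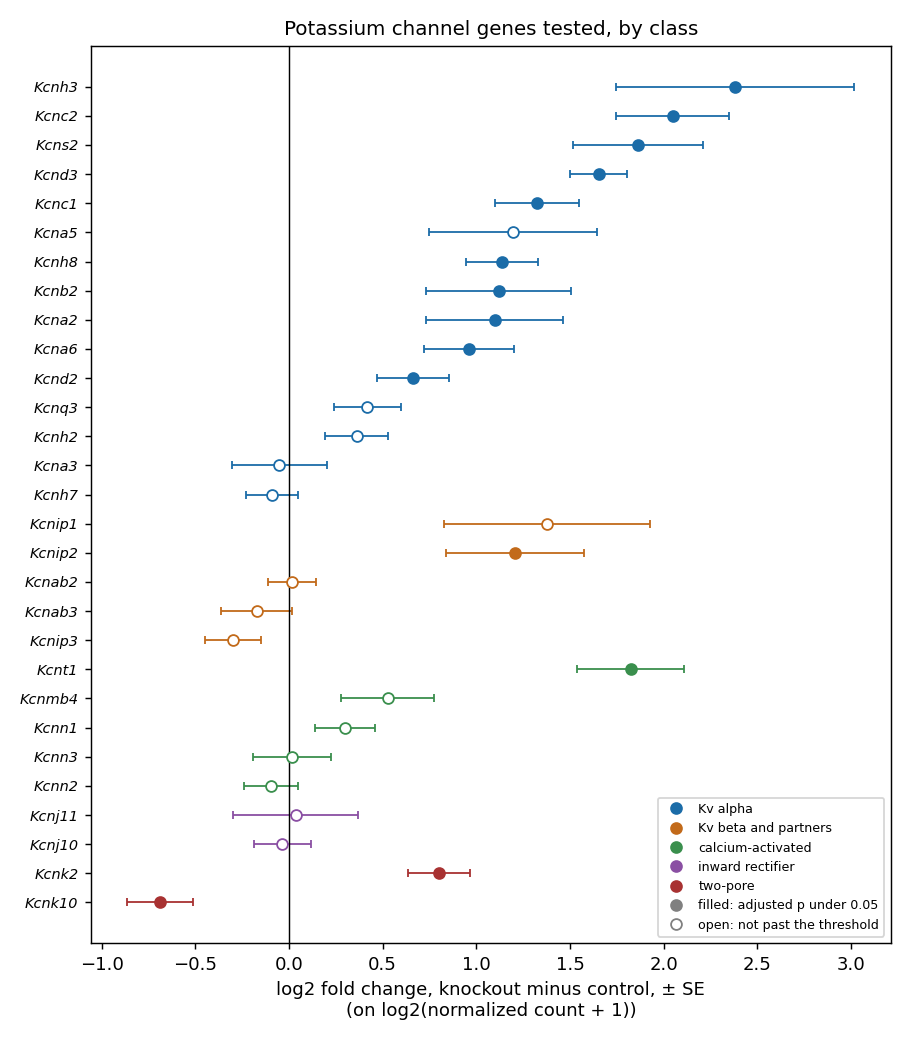
Log2 fold change, knockout minus control, on the log2(normalized count + 1) scale (x axis) for the 29 tested potassium channel genes (y axis, grouped by class), with bars of 1 standard error and filled points where the adjusted p was under 0.05. The 14 filled points comprise 13 to the right of 0 and Kcnk10 to the left at -0.69.

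The Kv3 genes Kcnc1 and Kcnc2 encode the fast delayed rectifiers that let mature parvalbumin and somatostatin interneurons fire at high rates. Kcnc1 (chr7:46396497-46438704, mm10, plus strand) had 225, 198, 250, 266 and 304 normalized counts in knockout libraries, against 64.7, 139, 134 and 75.7 in control libraries. The lowest knockout library lay above the highest control. Kcnc1 averaged 249 ± 40.4 in knockout and 103 ± 38.5 in control (SD, n = 5 and 4), a 2.41-fold difference (log2 fold change 1.32, SE 0.224, adjusted p = 0.00107). Kcnc2 (chr10:112271121-112467024, plus strand) had 130, 102, 142, 97.6 and 102 in knockout libraries, against 14.2, 41.7, 44.2 and 18.9 in control libraries. Its groups were also apart, with the controls in a low pair and a higher pair. The means were 115 ± 20.1 and 29.8 ± 15.4, a 3.85-fold difference (log2 fold change 2.05, SE 0.302, adjusted p = 0.00044). In Kcnc1 the same controls, 2 and 3, were the higher pair.

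The third Kv3 member, Kcnc4, was near the limit of detection, with 4.95, 5.77, 5.02, 3.83 and 4.03 normalized counts in knockout libraries, against 0, 0.993, 1 and 1.99 in control libraries. These are 4 to 6 reads in each knockout library and 0 to 2 reads in each control, and the groups did not overlap. Kcnc4 was below the filter; the fit without it gave a call (log2 fold change 1.61, SE 0.524, adjusted p = 0.0176).

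The Kv4 genes Kcnd2 and Kcnd3 encode A-type channels, which inactivate fast and delay the return to threshold after a spike. Kcnd3 (chr3:105452330-105674002, plus strand) had 448, 441, 457, 522 and 566 normalized counts in knockout libraries, against 126, 197, 190 and 118 in control libraries. The lowest knockout library had more than any control by a wide gap. Controls 2 and 3 were again the higher pair. The means were 487 ± 54.8 and 158 ± 41.4, a 3.09-fold difference (log2 fold change 1.65, SE 0.154, adjusted p = 2.53e-05). Kcnd2 (chr6:21215503-21729805, plus strand) had 44.5, 32.7, 52.2, 57.4 and 45.3 in knockout libraries, against 29.3, 27.8, 27.1 and 29.9 in control libraries. Knockout 2 was close to the controls, which varied little. The means were 46.4 ± 9.31 and 28.5 ± 1.28 (log2 fold change 0.66, SE 0.192, adjusted p = 0.0157).

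Kcns2 encodes an electrically silent subunit that forms channels only together with Kv2 subunits and alters their gating. It (chr15:34837355-34843407, plus strand) had 154, 120, 151, 152 and 182 normalized counts in knockout libraries, against 41.4, 93.4, 35.2 and 19.9 in control libraries. The groups did not overlap, although control 2 was well above the other controls. The means were 152 ± 22.0 and 47.5 ± 31.9, a 3.20-fold difference (log2 fold change 1.86, SE 0.348, adjusted p = 0.00256). Kcnb2, a Kv2 subunit of delayed rectifiers, had 16.8, 11.5, 15.04, 30.6 and 28.2 in knockout libraries, against 11.1, 4.97, 5.02 and 15.9 in control libraries. The groups overlapped, with control 4 above knockouts 2 and 3, yet the gene passed (log2 fold change 1.12, SE 0.388, adjusted p = 0.0367). The Kcnb2 call was lost without control 2 or 3 or without knockout 1, 4 or 5 (adjusted p = 0.0988, 0.103, 0.0520, 0.0914 and 0.0803). The silent subunits Kcnf1 and Kcng1 were below the filter, at 6.72 and 5.51 normalized counts in knockout and 4.75 and 5.28 in control.

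Kcnh3 and Kcnh8 encode Elk channels, which open at voltages below the spike threshold. Kcnh8 (chr17:52602709-52979194, plus strand) had 49.5, 51.9, 65.2, 67.0 and 43.3 normalized counts in knockout libraries, against 20.2, 28.8, 24.1 and 24.9 in control libraries. All knockout libraries were above all controls, with means of 55.4 ± 10.3 and 24.5 ± 3.52 (log2 fold change 1.14, SE 0.192, adjusted p = 0.000621). Kcnh3 (chr15:99224861-99242817, plus strand) had 22.7, 12.5, 42.1, 46.9 and 44.3 in knockout libraries, against 26.3, 2.98, 3.01 and 1.99 in control libraries. Control 1 lay above knockouts 1 and 2, whereas the other controls were near 0. The log2 fold change of Kcnh3, 2.38, was the largest of the 29 and had the largest error (SE 0.636, adjusted p = 0.0143). Control 1 is the library with the cortical and choroid plexus transcripts; their part in its Kcnh3 level was not tested. Without control 1 the Kcnh3 log2 fold change was 3.11 (adjusted p = 0.000327), and without control 4 the call was lost (adjusted p = 0.0525). The Erg genes Kcnh2 and Kcnh7, whose slow channels steady the resting potential, did not pass. Kcnh2 averaged 69.8 ± 8.69 in knockout and 54.6 ± 10.6 in control (adjusted p = 0.111). Kcnh7 averaged 240 ± 38.7 and 255 ± 39.9 (adjusted p = 0.651). Of the Eag genes below the filter, Kcnh1 averaged 2.39 and 1.5. Kcnh5 had 1.98, 0, 1, 1.91 and 3.02 in knockout libraries, against 6.06, 3.97, 5.02 and 2.99 in control libraries. Knockout 5 just overlapped control 4, and in the fit without a filter the difference did not pass (log2 fold change -1.20, adjusted p = 0.117).

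The Kv1, or Shaker-type, genes encode low-threshold channels of axons and terminals. Kcna6 (chr6:126708329-126740674, minus strand) had 47.5, 32.7, 58.2, 52.6 and 78.6 normalized counts in knockout libraries, against 32.3, 29.8, 24.1 and 19.9 in control libraries. The lowest knockout library, knockout 2, was almost level with the highest control, with 34 reads against 32. The means were 53.9 ± 16.7 and 26.5 ± 5.59 (log2 fold change 0.96, SE 0.240, adjusted p = 0.00685). Kcna2 (chr3:107101146-107115005, plus strand) had 17.8, 12.5, 12.04, 13.4 and 28.2 in knockout libraries, against 9.10, 11.9, 4.02 and 4.98 in control libraries. The lowest knockout and the highest control both held 12 reads, so its groups are separated by the size factors alone. Kcna2 passed (log2 fold change 1.10, SE 0.367, adjusted p = 0.0312), and the call was lost without control 3 or 4 or without knockout 1 or 5 (adjusted p = 0.0905, 0.0877, 0.0627 and 0.0795). Kcna3, a channel best known from lymphocytes and microglia, had 59.3, 51.9, 27.1, 36.4 and 27.2 in knockout libraries, against 33.4, 54.6, 36.2 and 37.9 in control libraries. The groups covered the same range (log2 fold change -0.05, SE 0.254, adjusted p = 0.896). Kcna4 averaged 0.783 in knockout and 2.75 in control libraries, and its control mean rested on control 4 (7.97).

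Kcna1, Kcna5 and Kcna6 are neighbours on chromosome 6, with gaps of 105 kb between Kcna5 and Kcna1 and 61.9 kb between Kcna1 and Kcna6. Kcna5 had 8.90, 10.6, 11.03, 40.2 and 12.1 normalized counts in knockout libraries, against 8.09, 3.97, 9.04 and 2.99 in control libraries. It narrowly missed the threshold (log2 fold change 1.195, SE 0.450, adjusted p = 0.0517), and knockout 4 alone was high. It passed with upper-quartile scaling (adjusted p = 0.0490), and without control 3 (0.0429) or knockout 1 (0.0459). The fit without the filter also gave Kcna5 a call (adjusted p = 0.0124), a p-value not on the scale of the filtered fit. Kcna1 had 0.989, 0, 0, 37.3 and 1.01 in knockout libraries, against 3.03, 0.993, 2.01 and 0 in control libraries. Knockout 4 thus held nearly all the Kcna1 signal of the series, while Kcna6 in that library (52.6) was within the range of the other knockouts. Kcna2 and Kcna3 are also neighbours, 63.1 kb apart on chromosome 3; the difference between them was not tested.

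Kcnq3, a subunit of the M-current that damps repetitive firing, averaged 253 ± 20.03 normalized counts in knockout and 196 ± 57.9 in control libraries. The difference did not pass (log2 fold change 0.42, SE 0.178, adjusted p = 0.0855), but did without control 3 (adjusted p = 0.0300). The fit without the filter also gave Kcnq3 a call (adjusted p = 0.0176), again not on the scale of the filtered fit. Kcnq5 was below the filter, at 4.52 in knockout and 6.26 in control.

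**Figure D2:**
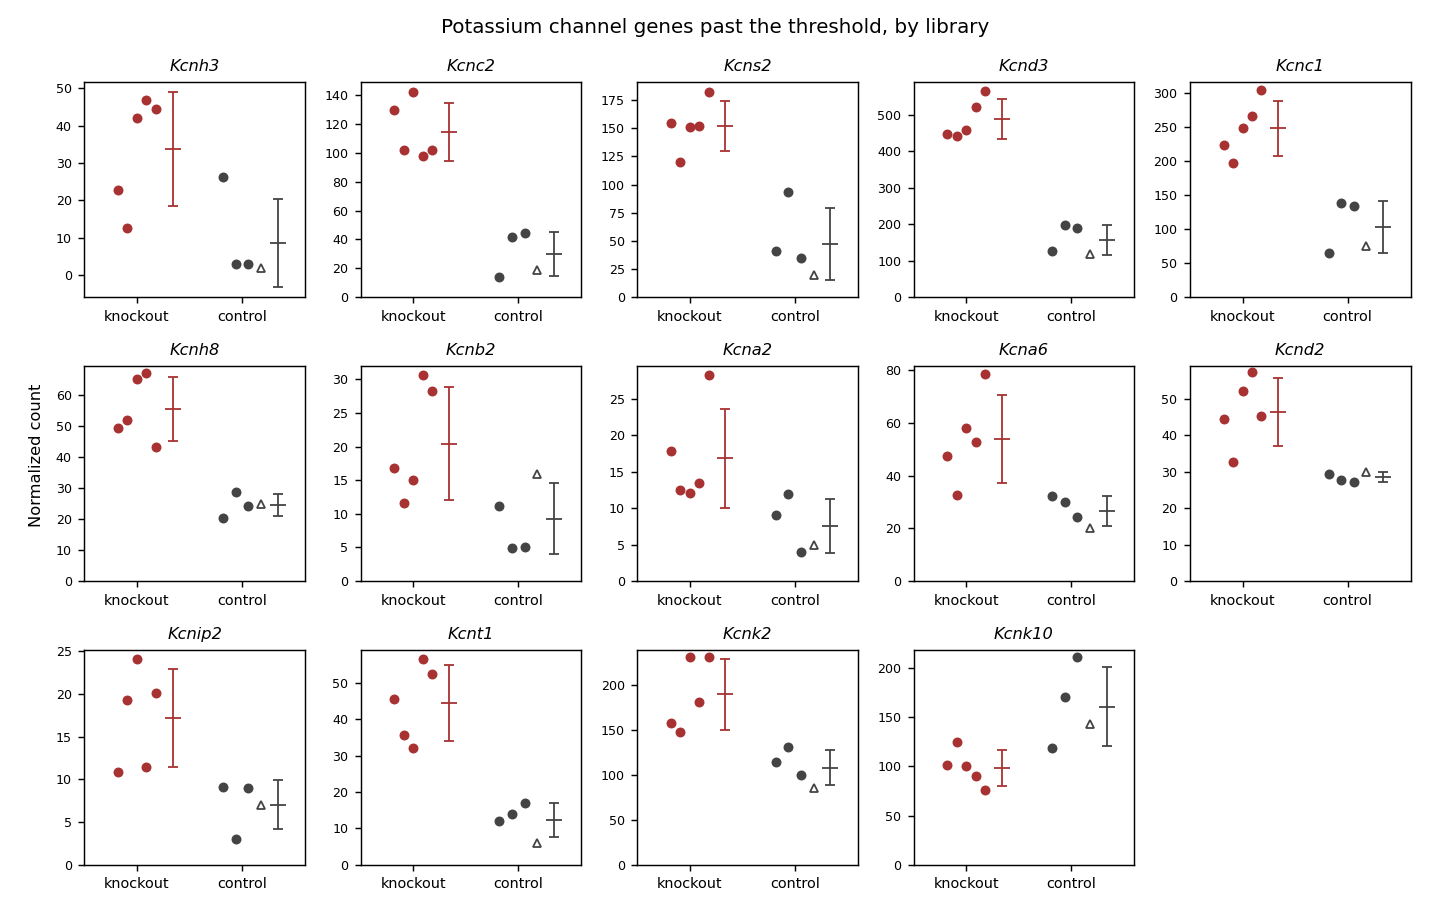
Normalized counts per library (y axis, linear, scaled to each gene) of the potassium channel genes past the threshold, with knockout points left, control points right and bars for mean ± SD; the open triangle is control 4, which carries 1 floxed allele. Knockout points lie above control points without overlap in 11 panels, overlap in Kcnh3 and Kcnb2, and lie mostly below them in Kcnk10.

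In the class of Kv beta subunits and partners, Kcnip2, one of the calcium-binding KChIP proteins that bring Kv4 channels to the surface, was the only one of 5 tested to pass. Kcnip2 (chr19:45791839-45816061, minus strand) had 10.9, 19.2, 24.1, 11.5 and 20.2 normalized counts in knockout libraries, against 9.10, 2.98, 9.04 and 6.98 in control libraries. The groups were narrowly apart (log2 fold change 1.21, SE 0.367, adjusted p = 0.0198), and the call was lost without control 2 (adjusted p = 0.0571) or knockout 3 (0.0556). Kcnip1 had 64.3, 36.5, 69.2, 83.2 and 91.7 in knockout libraries, against 74.8, 29.8, 20.1 and 7.97 in control libraries. Control 1 was within the knockout range while the other controls were below it. Kcnip1 did not pass with all libraries (log2 fold change 1.38, SE 0.548, adjusted p = 0.0813) and passed without control 1 (1.90, adjusted p = 0.00515). Kcnip3, also known as the transcriptional repressor DREAM, averaged 109 ± 20.5 in knockout and 133 ± 14.4 in control (adjusted p = 0.131). Kcnip4 was below the filter (7.65 in knockout, 5.25 in control).

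The beta subunit genes, whose cytoplasmic proteins attach to Kv1 channels, did not pass. Kcnab2 averaged 115 ± 14.7 normalized counts in knockout and 113 ± 7.94 in control libraries (log2 fold change 0.02, SE 0.129, adjusted p = 0.936). Kcnab3 averaged 87.4 ± 25.1 and 95.8 ± 10.6 (log2 fold change -0.17, SE 0.190, adjusted p = 0.512). Kcnab1 was below the filter, at 3.74 and 3.26.

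Outside the 47, the transmembrane Kv4 partners Dpp6 and Dpp10 were higher in knockout. Dpp10 had 66.3, 28.8, 35.1, 36.4 and 111 normalized counts in knockout libraries, against 2.02, 5.96, 5.02 and 1.99 in control libraries, a 14.8-fold difference of means (log2 fold change 3.49, SE 0.407, adjusted p = 7.34e-05). Dpp6 averaged 263 ± 58.9 and 111 ± 23.5 (log2 fold change 1.22, adjusted p = 0.000366).

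In the calcium-activated class, Kcnt1 rose, the only call among the 5 members past the filter. It encodes a sodium-activated channel of this structural family that carries slow afterhyperpolarization. Kcnt1 (chr2:25863734-25918273, plus strand) had 45.5, 35.6, 32.1, 56.5 and 52.4 normalized counts in knockout libraries, against 12.1, 13.9, 17.1 and 5.98 in control libraries. The groups did not overlap, with means of 44.4 ± 10.5 and 12.3 ± 4.67 and a 3.62-fold difference (log2 fold change 1.82, SE 0.286, adjusted p = 0.000388). Its paralog Kcnt2 was below the filter, at 7.64 in knockout and 8.01 in control.

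The small-conductance (SK) genes, whose channels are opened by calcium through calmodulin, did not pass. Kcnn1 averaged 170 ± 34.1 normalized counts in knockout and 137 ± 23.0 in control libraries (log2 fold change 0.30, SE 0.160, adjusted p = 0.159). Kcnn2 averaged 124 ± 14.3 and 133 ± 25.2 (log2 fold change -0.10, SE 0.143, adjusted p = 0.634). Kcnn3 averaged 33.8 ± 6.97 and 33.0 ± 4.91 (log2 fold change 0.02, SE 0.208, adjusted p = 0.956).

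Kcnma1 encodes the large-conductance (BK) channel, which joins voltage and calcium sensing and speeds repolarization. It (chr14:23289431-24014491, minus strand) had 6.92, 5.77, 9.03, 19.1 and 19.1 normalized counts in knockout libraries, against 2.02, 0.993, 2.01 and 0 in control libraries. All knockout libraries were higher, from 6 to 20 reads against 0 to 2, with knockouts 4 and 5 above the other knockouts. Kcnma1 was below the filter. The fit without the filter gave a call (log2 fold change 2.502, SE 0.464, adjusted p = 1.69e-06), a p-value not on the scale of the filtered fit. Kcnmb4, the neuronal beta subunit of BK channels, averaged 29.0 ± 7.58 in knockout and 19.5 ± 4.15 in control and did not pass (log2 fold change 0.53, SE 0.247, adjusted p = 0.112).

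Inward rectifiers hold cells near the potassium equilibrium potential, and none of the 6 members passed a test. Kcnj10, the channel of glia and their progenitors that takes up potassium, had 109, 128, 121, 101 and 102 normalized counts in knockout libraries, against 113, 132, 136 and 84.7 in control libraries. The knockout range lay inside the control range (log2 fold change -0.03, SE 0.151, adjusted p = 0.878), although the summed progenitor markers were lower in every knockout library. Kcnj11, the pore of the ATP-sensitive channel, had 17.8, 13.5, 18.1, 24.9 and 17.1 in knockout libraries, against 35.4, 18.9, 15.1 and 8.97 in control libraries. Controls spread to both sides of the knockouts (log2 fold change 0.04, SE 0.334, adjusted p = 0.940). Its partner Abcc8, the sulfonylurea receptor, whose gene lies 3.76 kb away on chromosome 7, averaged 16.2 ± 8.14 and 20.1 ± 14.8 (adjusted p = 0.793). The G-protein-gated genes Kcnj3, Kcnj6 and Kcnj9, which hyperpolarize neurons in response to transmitters, averaged 1.76, 1.19 and 9.67 in knockout and 3.53, 1 and 7.28 in control. Kcnj4, a constitutive rectifier, averaged 0.984 and 2.25. These 4 genes were below the filter and did not pass in the fit without it.

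Two-pore channels carry background leak current, and here the close relatives Kcnk2 (TREK-1) and Kcnk10 (TREK-2), both opened by membrane stretch and lipids, went opposite ways. Kcnk2 (chr1:189207930-189402273, minus strand) had 157, 148, 231, 181 and 232 normalized counts in knockout libraries, against 114, 131, 100 and 85.7 in control libraries. Every knockout library was above every control, with means of 190 ± 39.7 and 108 ± 19.4 (log2 fold change 0.80, SE 0.163, adjusted p = 0.00200). Kcnk10 (chr12:98429437-98578310, minus strand) had 101, 125, 100, 89.9 and 75.6 in knockout libraries, against 118, 170, 211 and 142 in control libraries. Knockout 2 was above control 1 and the other knockouts were below all controls. The means were 98.3 ± 18.1 and 160 ± 39.8 (log2 fold change -0.69, SE 0.175, adjusted p = 0.00777), and Kcnk10 was the only member called lower. Kcnk5, an alkaline-activated two-pore channel outside the 47, was also lower, at 16.3 ± 3.51 in knockout and 37.1 ± 8.61 in control (log2 fold change -1.13, adjusted p = 0.00281).

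Of the other leak channels, Kcnk3 (TASK-1, closed by extracellular acid) had 7.91, 8.65, 10.03, 6.70 and 18.1 normalized counts in knockout libraries, against 3.03, 1.99, 4.02 and 1.99 in control libraries. The groups did not overlap and the gene was below the filter; the test without it gave a call (log2 fold change 1.54, SE 0.435, adjusted p = 0.00406). Kcnk1, the weakly conducting TWIK-1, averaged 5.12 in knockout and 4.27 in control libraries and was also below the filter.

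**Figure D3:**
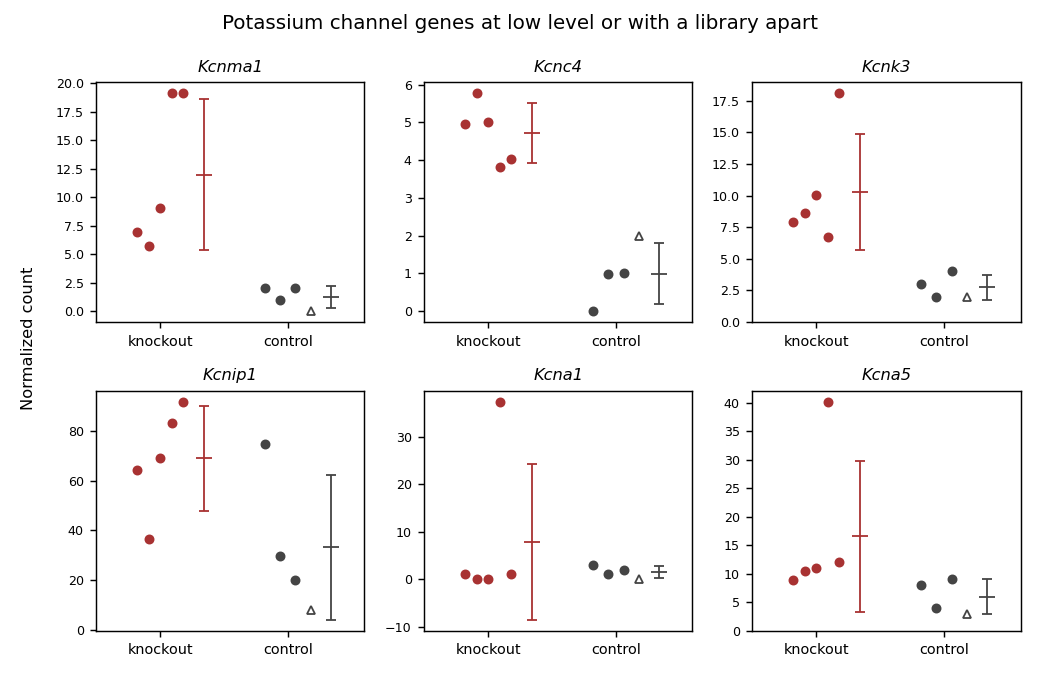
Normalized counts per library (y axis, linear, scaled to each gene) of 6 potassium channel genes that did not pass in the filtered test, with knockout points left, control points right and bars for mean ± SD; the open triangle is control 4. The groups of Kcnma1, Kcnc4 and Kcnk3 do not overlap, while knockout 4 alone is high in Kcna1 and Kcna5 and control 1 is high in Kcnip1.

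The separation of the groups was also counted without a model. Of the 29 tested members, 11 had every knockout library above every control and 0 had every knockout below, where 14.5% and 14.6% of all tested genes did. With Kcnc4, Kcnma1 and Kcnk3 added from below the filter, 14 of the 47 were separated upward and 0 downward. Among the 30849 genes above 0 in some library, 6.93% and 6.96% were. Only 13780 of those 30849 genes passed the filter, against 29 of the 47 members, so these shares are not matched for level. Kcnb2, called by limma, had an exact permutation p of 0.0556, and Kcnk10 one of 0.0238. These are single-gene values with no adjustment.

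The libraries of a group were not alike. Among the 13 genes called higher, knockout 5 was the highest knockout in 6, knockout 4 in 5 and knockout 3 in 2, while knockout 2 was the lowest in 8. Their mean log2 level was 5.68 to 6.32 over the knockout libraries and 4.34 to 4.82 over the controls. Knockout 5 also had the highest sum of pan-neuronal markers (39226) and the lowest of progenitor markers (16838), and among the knockouts knockout 2 had the lowest neuronal sum (30495) and the highest progenitor sum (25402). Among controls, control 2 was highest in 6 of the 13 genes and control 4 lowest in 6. Control 2 had the highest neuronal sum of the controls (21752) and the lowest progenitor sum (32760). Control 4 had the highest progenitor sum (39124), but the lowest neuronal sum was that of control 1 (17277, against 18062 in control 4). The mean log2 level of the 13 genes was nevertheless higher in control 1 (4.80) than in control 4 (4.34). The part of neuronal and progenitor content in the channel differences was not tested.

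**Figure D4:**
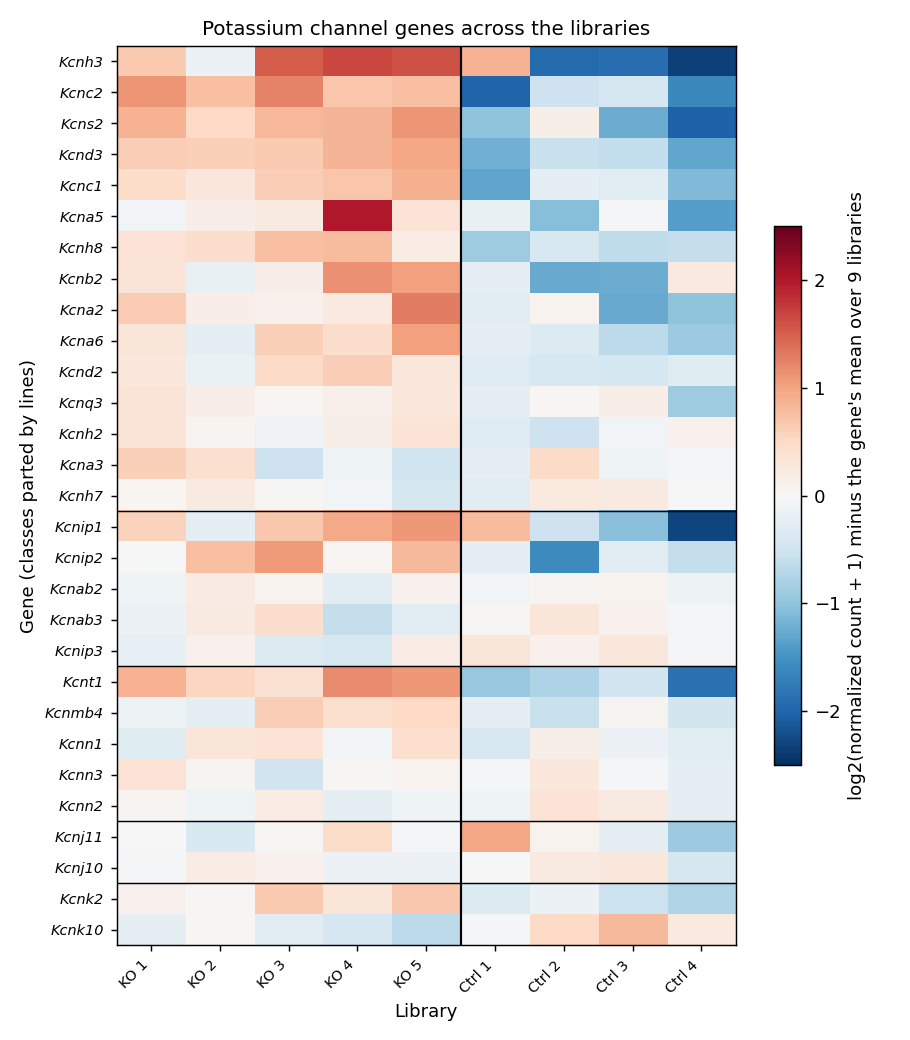
Log2(normalized count + 1) minus the gene's mean over the 9 libraries (colour scale) for the 29 tested potassium channel genes (rows, by class) in knockout 1 to 5 (left) and control 1 to 4 (right). Most Kv alpha rows are above their mean in the knockout columns, and Kcnk10 runs the other way.

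Per kilobase of exon, the leading potassium channel genes differed between the groups. In knockout libraries Kcnd3 was first of the 47 with 50.8 ± 5.71 normalized counts per kb, and in control libraries it was eleventh with 16.4 ± 4.32. Behind it in knockout stood Kcnk2 (38.4 per kb), Kcnn1 (37.0), Kcnip3 (30.9), Kcnab3 (30.5), Kcns2 (27.2) and Kcnc1 (26.3). In control libraries Kcnip3 was first (37.6 per kb), before Kcnab3 (33.5), Kcnn1 (29.8), Kcnk2 (21.8), Kcnj10 (21.5) and Kcna3 (21.3). In knockout, Kcnk2 and Kcnn1 (SD 8.04 and 7.43) lay within 1 SD of each other, as did Kcnip3 and Kcnab3 (SD 5.78 and 8.75), whereas Kcnd3 stood further above Kcnk2 than the SD of either. In control, Kcnk2, Kcnj10 and Kcna3 lay within 1 SD of Kcnk2 (3.92). These orders are descriptions, with no test. Kcnma1 was the lowest in control libraries, at 0.07 per kb.

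**Figure D5:**
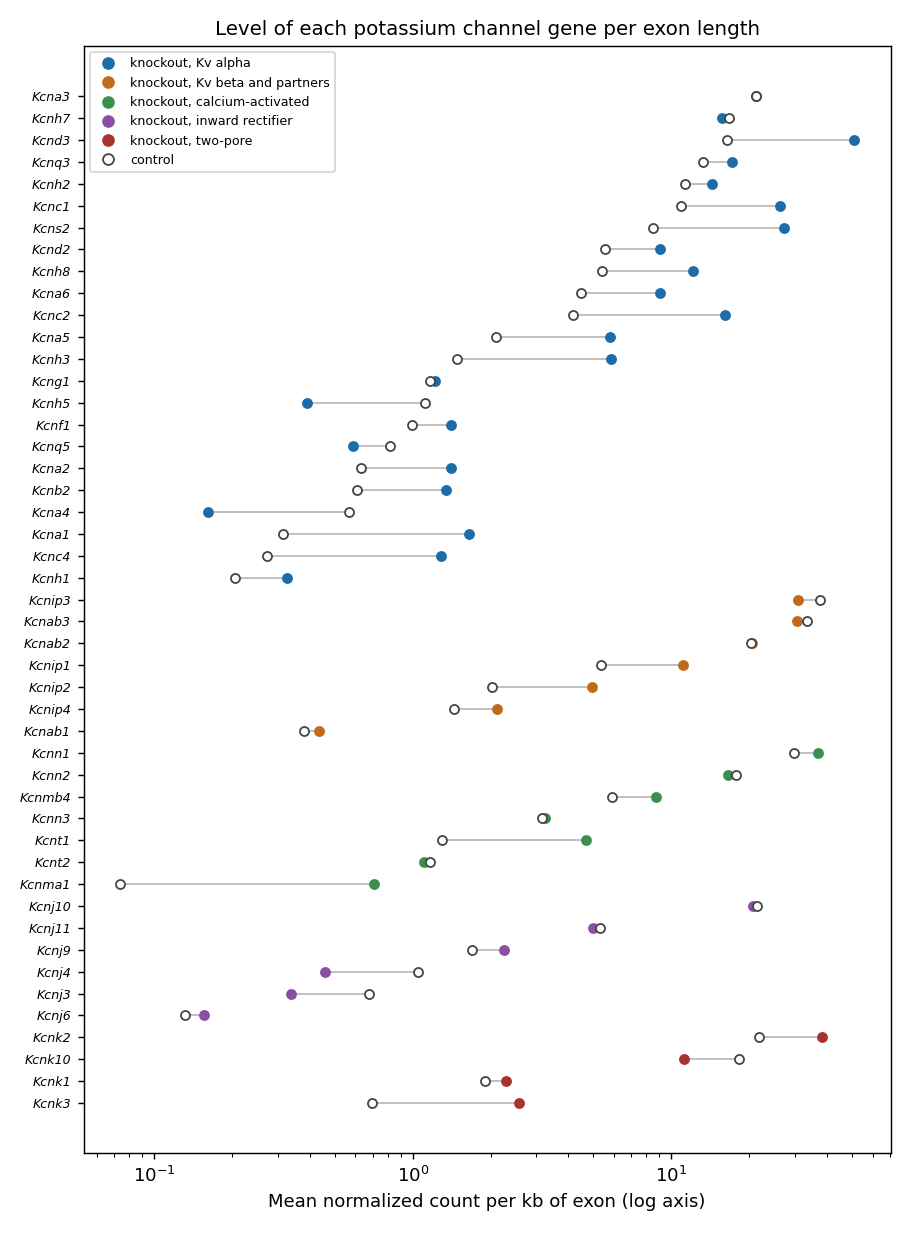
Mean normalized count per kilobase of exon (x axis, log scale) of the 47 potassium channel genes (y axis, by class and then by control level), with filled points for knockout and open points for control joined by a line. Kcnd3 reaches 50.8 in knockout against 16.4 in control, the highest knockout point, and Kcnma1 at 0.07 is the lowest control point.

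Other channel genes, listed by family membership, gave the following counts in the same fit. Of 56 further potassium channel and partner genes, 19 were tested, 7 were higher (among them Kcnh4, Dpp6, Dpp10, Amigo1 and Kcnu1) and 1 was lower (Kcnk5), with a median log2 fold change of 0.50. By class, 3 of 6 tested Kv alpha genes, 3 of 6 Kv beta and partner genes and 1 of 2 calcium-activated genes were higher. The 4 tested inward rectifiers did not pass, and the 1 tested two-pore gene was lower. Kcnh4, the third Elk gene, averaged 302 ± 56.9 normalized counts in knockout and 130 ± 56.8 in control (log2 fold change 1.30, adjusted p = 0.00392). With this gene, all 3 Elk genes passed. Of the sodium channel subunits that drive the spike, 7 of 8 tested were higher and 0 lower (median 1.32), Scn3a (2.22) and Scn1a (1.66) among them. Of voltage-gated calcium channel subunits, 11 of 15 tested were higher and 0 lower (median 1.08), with Cacnb4 at 1.87. Of pan-neuronal markers, 7 of 12 tested were higher and 0 lower (median 0.78), with Dcx at 1.33 and Map2 at 0.82. Of ventricular zone progenitor markers, 0 were higher and 7 of 12 lower (median -0.77), with Nes at -1.02 and Vim at -0.90. The progenitor changes were not all downward. Among the 12, 3 were positive, up to 1.09, and 1 was called higher without knockout 1. MGE markers, which check the labelled tissue, were all present: 6 of 10 were higher and 0 lower (median 0.42), with Lhx6 at 0.84 and Gad1 at 1.23. Among lists of other cell types, 0 of 10 cortical, 0 of 4 choroid plexus, 0 of 9 endothelial, 0 of 7 microglial and 0 of 6 erythroid genes tested passed in either direction, and 2 of 5 oligodendrocyte and astrocyte genes were higher (Aqp4 and Aldh1l1). Without control 1, 2 cortical genes were higher, and without knockout 5, 4 microglial genes were lower. The Aldh1l1 call was lost without any 1 of controls 1, 3 and 4 or knockouts 1, 3, 4 and 5 (adjusted p = 0.0515 to 0.0996). Whether the potassium channel counts differ from those of the other lists was not tested.

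The start sites of the members were searched for the TCF/LEF core, CTTTGA or TCAAAG on the other strand, since beta-catenin acts through these factors. RefSeq (GRCm38.p6) gave windows from 250 bases before to 50 bases after a start for 36 of the 47 members, 55 windows in all. The core was in 2 of the 55 (3.64%), against 16.0% of all 32851 windows. The matches lay 221 bases before a Kcnk2 start and 157 bases before a Kcna2 start. Both genes were higher in knockout, as were 13 of the 29 tested members. The Kcna2 match lies inside the GENCODE span of the gene (chr3:107101146-107115005), so this RefSeq start is downstream of the start of that span. Both matches are shown with their surroundings, the core in capitals, from chr1:189402462-189402521 (minus strand) and chr3:107101383-107101442 (plus strand).
Kcnk2: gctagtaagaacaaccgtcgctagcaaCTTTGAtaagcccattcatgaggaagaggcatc
Kcna2: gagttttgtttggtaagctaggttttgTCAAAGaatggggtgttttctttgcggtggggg
The 9-base piece TTCAGCACC (or GGTGCTGAA on the other strand) of the binding site of REST, a repressor of neuronal genes outside neurons, was in 0 of the 55 windows and in 0.371% of all. At that share over all windows, 55 windows are too few for 0 matches of the REST piece to show a shortage. A match here is only a run of letters, and its absence says nothing about binding elsewhere.

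Some counts could include reads from a second gene, because the strand setting is not given in the sources used here. Kcna6 shares 39.6% of its exon bases with the antisense gene Gm26673, whose own mean was 0.107 normalized counts. Kcnk2 shares 12.2% with A430027H14Rik (mean 9), Kcnd3 1.72% with Kcnd3os (4.71), Kcnh7 4.57% with Gca (99.2) and Kcnmb4 20.8% with Kcnmb4os2 (14.0). Kcnip4, whose own mean was 6.58, shares 4.63% with 5730480H06Rik (76.0).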

How the data were processed

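The authors deposited 1 table of normalized counts, a signal per gene with no value below 0: in each of the 9 libraries all values were whole multiples of 1 step (tolerance 0.01), the form that read counts divided by size factors (0.989 to 1.05) would have. The table does not state this; read numbers in the text are values divided by that step, and no count model was fitted. The build was mm10, and the tools listed are R 3.4.0, DESeq2, HTSeq 0.9.1 and TopHat2 2.1.1, per the submitters' processing notes; for strand setting and annotation release, none is given in the sources used here. Libraries were made from total RNA with the NEBNext Ultra kit, per the labels' protocols. Here limma 3.58.1 (trend and robust, statmod 1.5.0, R 4.3.3) was fitted to log2(normalized count + 1) of 13780 genes with a mean of at least 10, two-sided, with Benjamini-Hochberg adjustment over all of them and a threshold of 0.05; fold changes of low genes are understated on this scale. The procedure was tested on simulated data. Symbols, positions and coding sequences are from GENCODE M21 (mm10), promoters from RefSeq. The members and lists were chosen with earlier results of these data known. All members are named; of other lists, up to 12 potassium channel genes and 4 of each other list past the threshold, by smallest p; Abcc8 was named after its values were seen. Some genes that this rule takes are not reported here. Alternatives were upper-quartile or TMM scaling, other pseudocounts (0.5 and 8), a minimum mean of 50, no filter at all, array quality weights, plain limma with neither trend nor robust, a replicate block, control replicates 2 and 3 only, and each library left out.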

Additional observations from a re-analysis of the deposited data

Results flagged for a closer look

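In 4 of 112 gene and group combinations, over the 47 members and the other potassium channel and targeted genes described (56 genes), 1 library lay far from the rest of its group by Dixon's test at 95%; chance at 1 in 20 would give 5.6. Kcna1 had 37.3 normalized counts in knockout 4, against 0 to 1.01 in the other knockouts. Kcna5, whose gene lies beside Kcna1 on chromosome 6, had 40.2 in knockout 4, against 8.90 to 12.1. Kcna4 had 7.97 in control 4, the library with 1 floxed Ctnnb1 allele, against 0.993 to 1.01 in the other controls. Kcnh3 had 26.3 in control 1, against 1.99 to 3.01. Knockout 4 had 737 normalized counts of choroid plexus markers and control 1 had 2959; their part in these values was not tested.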

How the results depend on the processing

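Over 537 alternative values of the members, 486 kept direction and side of the threshold, 17 were no longer past it, 9 newly passed and 25 changed sign. Kcna6, Kcnc1, Kcnc2, Kcnd3, Kcns2, Kcnh8, Kcnt1, Kcnk2 and Kcnk10 passed under every alternative that tested them. With a minimum mean of 50, where fewer members are tested, 5 of 16 members and 4 of 7 Kv alpha genes were higher (2072 of all 10376 genes), 0 Kv beta, partner or calcium-activated genes were higher, and 0 other potassium channel genes were lower. With no filter, 2 calcium-activated and 2 two-pore genes were higher and 1 calcium channel gene was lower. Of all 30849 genes in that fit, 2448 were higher and 2247 lower. Kv beta and partner genes called higher numbered 2 with array quality weights (2274 of all 13780 genes) or control replicates 2 and 3 only. With those controls only, which left out the heterozygous library and control 1, 1387 of all genes were higher and 1112 lower, and 12 members were higher; Kcnd2 (adjusted p = 0.0607) and Kcna2 (0.118) no longer passed. Kcnip1 passed there (0.0133). Replicate numbers did not pair the libraries (correlations -0.117, -0.0916, 0.137 and -0.0406, and only knockout 3 correlated best with the control of its own number); with the replicate block, in which knockout 5 has no partner, 10 members and 0 Kv beta or partner genes were higher, among 1829 genes higher and 1681 lower; Kcna2 (adjusted p = 0.0909), Kcnh3 (0.0511) and Kcnip2 (0.0568) did not pass, and 3 microglial genes were lower. Sign changes: Kcna3 0.0706 with array quality weights and 0.0698 with the block; Kcnab2 -0.0421 with the weights, -0.0111 with the block and -0.0701 with control replicates 2 and 3; Kcnh7 0.00888 with the block; Kcnn3 -0.00397 with the block and -0.10 with those controls. Leaving out 1 library at a time, members higher ranged from 11 to 14 and Kv beta and partner genes from 0 (without control 2 or knockout 3) to 2 (without control 1), calcium channel genes lower from 0 to 1 (without knockout 4), and log2 fold changes from -0.205 to 0.0991 for Kcna3, -0.0332 to 0.0820 for Kcnab2, -0.195 to 0.00888 for Kcnh7, -0.178 to 0.0460 for Kcnj10, -0.26 to 0.36 for Kcnj11 and -0.0699 to 0.144 for Kcnn3. Of the 13723 to 13808 genes tested in the fits with 1 library left out, 1857 to 2390 were higher and 1686 to 2417 lower. The 18 members below the filter had means of 1.10 to 8.61, and 3 of them passed without it. Causes were not tested.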
